A study of Mus musculus with 8 samples.

Results

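The genes described here encode potassium channels and their dedicated subunits in mouse pancreatic islets. They were chosen by symbol alone, as every symbol of the deposited count table that starts with Kcn, together with Abcc8 and Abcc9, the sulfonylurea receptors of the ATP-sensitive channel. The rule gave 96 of the 32531 symbols of the table and used no measured value. RNA was sequenced from islets of 4 controls (RIP-Cre+, Rosa26-rtTA+, without tetO_NICD) and 4 β-tetO-NICD mice (RIP-Cre+, Rosa26-rtTA+, tetO_NICD+). Both groups received doxycycline (Dox) for 8 weeks on a mixed background of C57BL/6J, 129X1/SvJ and BALB/c, and the labels give no age. NICD is the active intracellular fragment of Notch1, and Cre driven by the insulin promoter directs it to β cells, whereas the RNA came from whole islets. Each library is called here by its column number, as Controls 1 to 4 and NICD 1, 2, 4 and 5. The labels number the β-tetO-NICD mice from 1 to 4, so the columns numbered 4 and 5 were used as libraries of the group without tying them to single mice.

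Potassium channels let potassium leave the cell and so hold the membrane potential of β cells negative. When glucose is metabolized, ATP closes the ATP-sensitive (KATP) channel, the membrane depolarizes, calcium enters through voltage-gated channels and insulin is released. Voltage-gated and calcium-activated potassium channels then repolarize the cell, two-pore channels carry a leak current, and silent and accessory subunits form no channel of their own but change the behaviour of the pores they join.

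The libraries held between 21701223 and 26413146 counts, and a level is given on the usual CPM scale, the share of a library's counts after normalization of library size. Notch1 had 1051 to 1562 counts in controls and 11388 to 36628 in β-tetO-NICD. No gene of any cell type marker list was at 0 in every library. Summed markers of β cells were at 157175 to 197769 CPM in controls and 72403 to 172163 in β-tetO-NICD, with 3 of 10 (G6pc2, Slc2a2 and Ucn3) called lower. Those of α cells were at 12079 to 43187 and 55548 to 70539 CPM, and 3 of 6 were called higher. Those of δ cells were at 2439 to 6588 and 5087 to 14146 CPM, and 1 of 4, Hhex, was called higher. Acinar markers, from digestive tissue around the islets, reached 42403 to 84314 and 35747 to 127545 CPM. Summed macrophage markers were at 151 to 204 and 220 to 324 CPM, with 1 of 7, C1qa, called higher, and those of Schwann cells and neurons at 70.0 to 77.1 and 40.7 to 48.8 CPM, with 1 of 7, Th, called lower. Eif2s3y, a Y-linked gene, had 1300, 1527 and 1465 counts in Control 2, Control 4 and NICD 5 and at most 1 in the other 5 libraries, whereas the study's methods describe islets of males for gene expression. The part of these differences in the results below was not tested. In whole islets, fewer cells of a type and less RNA per cell cannot be told apart.

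A set of 11 potassium channel genes differed between the groups, and they came from several channel classes rather than from the KATP channel. Of the 96 genes, 71 had enough counts to be tested, which here means that 4 or more of the 8 libraries held 10 counts or more. Levels of 5 genes rose in β-tetO-NICD (Kcnj13, Kcnk13, Kcnj4, Kcnc2 and Kcnk3) and those of 6 fell (among them Kcnf1, Kcnk9, Kcnj12, Kcna2 and Kcnmb2), by edgeR's quasi-likelihood test with an adjusted p under 0.05 over all genes tested. These 11 are 15.5% of the tested members, beside 6.76% of the 15082 genes tested in either direction, 4.19% higher and 2.57% lower. The remaining 60 members did not pass. The median log2 fold change of the 71 was -0.02, with 34 above 0 and 37 below, and the median of all genes tested was 0.00. The β-tetO-NICD libraries lay wholly above the controls for 10 members and wholly below for 6, beside 8.22% and 7.92% of all genes tested, or 16.1% in all. The count depended on single libraries. It ranged from 4 to 27 when 1 library was left out, with 4 lacking Control 1 or NICD 2, 5 lacking Control 2, 6 lacking Control 4 or NICD 4, and 27 lacking NICD 1. The calls over all 15082 genes moved as well, from 374 lacking NICD 2 to 5011 lacking NICD 1. Kcnf1 and Kcnj13 were among the members that passed in all 8 fits that left out 1 library. Kcnk9 did so too, but it had enough counts to be tested through the controls alone, and its place among the 11 follows in part from that. The labels give each sample an identifier of its own, and a p-value here measures the spread between these samples.

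**Figure D1:**
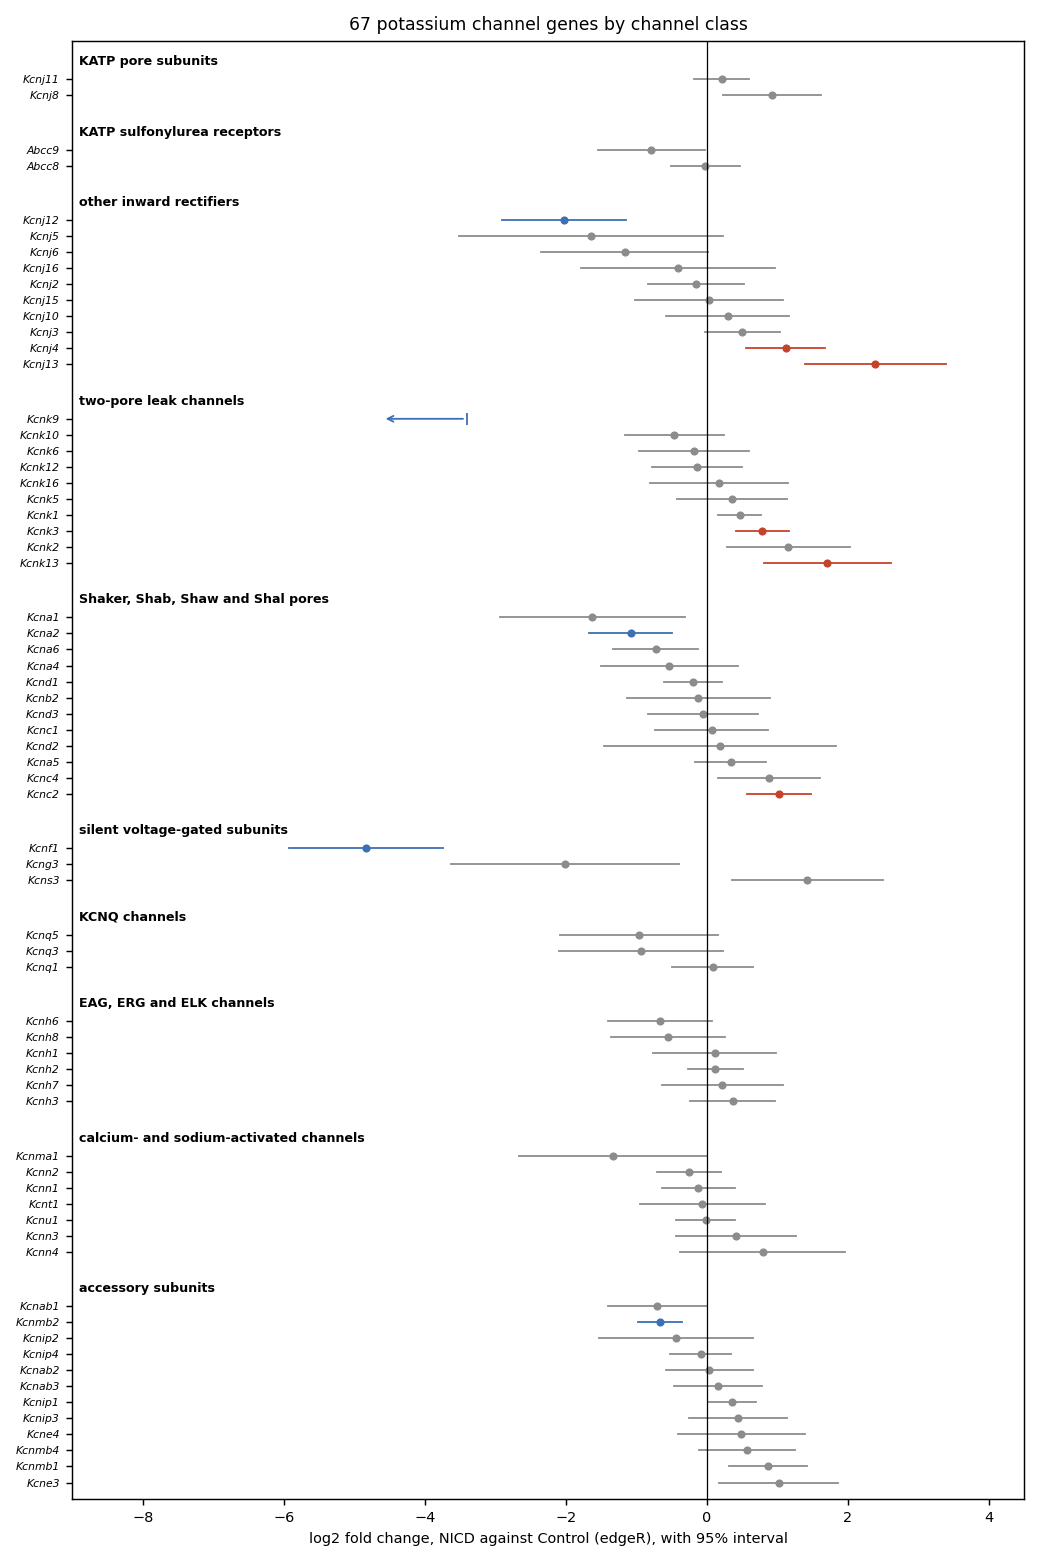
The log2 fold change of 67 of the 71 tested potassium channel genes (horizontal axis, β-tetO-NICD against control, edgeR) is shown by channel class, with points for estimates, lines for 95% intervals, red for genes called higher, blue for genes called lower and grey for the rest. Calls are spread over several classes, Kcnf1 is the lowest estimate drawn as a point, and Kcnk9 is drawn as an arrow from its bound.

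Of the 25 members under the minimum, Kcne1 and Kcns2 had no count in any library, 12 had at most 3 counts in every library, and the highest count was 15, of Kcna3. Silent subunits made up 7 of the 25. Kcnrg, the one Kcn symbol that is no channel subunit of these classes, had 3 to 9 counts per library and was also not tested. Kcne1l, a single-span accessory subunit, had 2, 0, 1 and 0 counts in controls and 2, 6, 9 and 10 in NICD 1, 2, 4 and 5. No comparison was made for these 25 genes in the fit used here.

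Promoter sequences are shown for the 4 called genes with the largest fold changes that had an entry in the RefSeq promoter table (build GRCm38.p6), since these are the regions nearest to the transcripts that differed most. Each is the 250 bases before the start that the table gives, 5′ to 3′ on the gene's strand. Capitals mark matches to TGGGAA, the core of the motif bound by Rbpj, the DNA-binding partner of NICD, or to CACNAG, the N box bound by Hes repressors, searched on both strands. The start of the Kcnj12 entry lies inside the gene's GENCODE interval, so its window is not upstream of the whole gene.
Kcnf1 (chr12:17176889-17177138, minus strand): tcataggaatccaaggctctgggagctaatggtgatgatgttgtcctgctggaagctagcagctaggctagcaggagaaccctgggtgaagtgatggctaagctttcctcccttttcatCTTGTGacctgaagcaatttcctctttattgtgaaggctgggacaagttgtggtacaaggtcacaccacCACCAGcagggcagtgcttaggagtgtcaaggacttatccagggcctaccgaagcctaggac
Kcnj12 (chr11:61065554-61065803, plus strand): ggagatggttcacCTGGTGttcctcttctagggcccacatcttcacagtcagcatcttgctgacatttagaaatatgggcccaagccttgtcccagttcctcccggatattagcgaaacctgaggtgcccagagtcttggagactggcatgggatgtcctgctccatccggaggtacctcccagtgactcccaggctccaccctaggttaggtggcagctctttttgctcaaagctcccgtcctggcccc
Kcnj13 (chr1:87394730-87394979, minus strand): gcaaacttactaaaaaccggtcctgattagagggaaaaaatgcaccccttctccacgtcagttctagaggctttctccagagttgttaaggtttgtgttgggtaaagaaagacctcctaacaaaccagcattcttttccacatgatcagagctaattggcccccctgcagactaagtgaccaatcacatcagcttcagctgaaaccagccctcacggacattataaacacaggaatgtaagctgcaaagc
Kcnk13 (chr12:99964249-99964498, plus strand): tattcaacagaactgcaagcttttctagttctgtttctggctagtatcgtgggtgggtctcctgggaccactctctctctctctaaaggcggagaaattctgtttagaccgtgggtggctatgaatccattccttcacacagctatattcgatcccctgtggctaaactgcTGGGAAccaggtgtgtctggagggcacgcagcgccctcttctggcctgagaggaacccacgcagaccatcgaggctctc
The Kcnf1 window held CACNAG on both strands, 131 and 62 bases before the start, and the Kcnj12 window held it 237 bases before the start of its entry. The Kcnk13 window held TGGGAA 79 bases before the start, and the Kcnj13 window held none of the motifs searched.

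These letters are common. TGGGAA was found in 21.6% of the 32851 promoters of the same length and CACNAG in 36.7%. The longer form GTGGGAA, which contains TGGGAA, was found in 5.42% and CACGTG, the E box, in 6.02%. Among the 95 promoter entries of 70 matched members the counts were 21 for TGGGAA (22.1%), 38 for CACNAG (40.0%), 4 for GTGGGAA (4.21%) and 6 for CACGTG (6.32%). The 8 called members with an entry had 11 promoters, of which 6 held CACNAG, 1 held TGGGAA and none held GTGGGAA or CACGTG. A match is a description of the letters and not a bound site.

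The KATP channel is built from the pore Kir6.2 (Kcnj11) and the sulfonylurea receptor SUR1 (Abcc8) in β cells, and from Kir6.1 (Kcnj8) and SUR2 (Abcc9) in vascular muscle. None of the 4 genes passed the test. Kcnj11 (chr7:46093953-46100764, GRCm38) was at 188, 140, 148 and 152 CPM in the controls and 189, 194, 208 and 136 CPM in NICD 1, 2, 4 and 5. Abcc8 (chr7:46104523-46180033), the next gene along the chromosome, was at 935, 807, 657 and 889 CPM in controls and 982, 696, 967 and 589 CPM in β-tetO-NICD. The groups overlapped for both genes, with NICD 5 the lowest library of each. The log2 fold change of Kcnj11 was 0.21 (SE 0.17, 95% interval -0.18 to 0.59, adjusted p = 0.414). That of Abcc8 was -0.02 (SE 0.22, interval -0.51 to 0.46, adjusted p = 0.948), and these intervals give the size of change that the 8 libraries could not separate from 0.

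The vascular-type pair sat far lower and its members had fold changes of opposite sign that did not pass. Kcnj8 (chr6:142564837-142571614) was at 1.71, 2.74, 2.73 and 3.41 CPM in controls and 2.90, 6.59, 4.95 and 5.64 CPM in β-tetO-NICD, with NICD 1 inside the control range. Its log2 fold change was 0.92 (SE 0.31, interval 0.23 to 1.61, adjusted p = 0.0918), and without NICD 1 it was 1.11 (adjusted p = 0.0158). Abcc9 (chr6:142587862-142702315) was at 9.59, 15.6, 7.83 and 17.5 CPM in controls and 11.6, 4.72, 6.84 and 6.10 CPM in β-tetO-NICD. Again only NICD 1 lay inside the control range. The log2 fold change of Abcc9 was -0.79 (SE 0.34, adjusted p = 0.146), and -1.10 (adjusted p = 0.0242) without NICD 1. In the fit without NICD 1, 5011 of 15082 genes passed. With an offset for transcript length the log2 fold change was 0.78 for Kcnj8 (edgeR adjusted p = 0.103) and -0.38 for Abcc9 (edgeR adjusted p = 0.260).

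Ratios within a library compare subunits of a channel without the library size, but they keep a library's trend with transcript length, described below. The longest transcripts were 3142 bases for Kcnj11 and 4877 for Abcc8. There were 20.1, 17.4, 22.5 and 17.1 Kcnj11 counts per 100 Abcc8 counts in controls, against 19.2, 27.8, 21.5 and 23.0 in β-tetO-NICD, a log2 difference of 0.24 (exact two-sided permutation test over 70 arrangements, p = 0.171). Kcnj8 against Kcnj11 differed by 0.71 (exact permutation p = 0.171) and Abcc9 against Abcc8 by -0.75 (exact permutation p = 0.114). After adjustment over the 3 ratios each exact p was 0.171. The ratios were added after the data had been seen. Kcnj11 counts per 100 Abcc8 counts were 17.1 to 20.1 in Controls 1, 2 and 4 and NICD 1, where longer transcripts ran higher. They were 21.5 to 27.8 in Control 3 and NICD 2, 4 and 5, where longer transcripts ran lower. The part of this trend in the ratios was not tested.

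**Figure D2:**
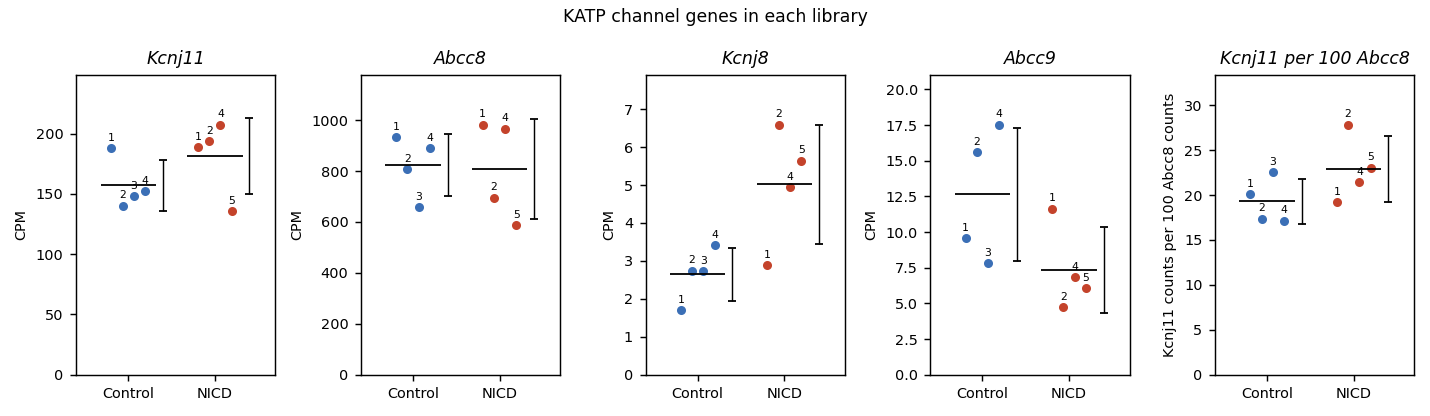
CPM of the 4 KATP genes, and Kcnj11 counts per 100 Abcc8 counts, are plotted for each library (numbered points), with a line at the group mean and a bar for 1 SD (n = 4). Every panel starts at 0 and the groups overlap in all 5 panels, with Kcnj11 between 136 and 208 CPM and Abcc8 between 589 and 982 CPM.

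The other inward rectifiers, which pass potassium more readily into than out of the cell, had 10 of 13 genes tested, 2 called higher and 1 lower, with a median log2 fold change of -0.06. Kcnj12 (Kir2.2, a strong rectifier; chr11:61022564-61071131) was at 11.3, 7.73, 3.96 and 7.35 CPM in controls and 2.66, 1.27, 2.39 and 1.06 CPM in β-tetO-NICD. No β-tetO-NICD library reached the lowest control. Its mean fell from 7.57 ± 2.98 to 1.84 ± 0.80 CPM (SD, n = 4 each), a log2 fold change of -2.03 (SE 0.39, edgeR adjusted p = 0.0170). The adjusted p was 0.0502 without Control 1 and 0.0643 without NICD 2.

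Its relative Kcnj4 (Kir2.3; chr15:79483714-79505241) moved the other way. Kcnj4 was at 1.89, 1.48, 1.66 and 2.07 CPM in controls and 3.61, 5.02, 3.88 and 2.87 CPM in β-tetO-NICD, with no overlap. The mean rose from 1.78 ± 0.259 to 3.85 ± 0.892 CPM (SD, n = 4 each; log2 fold change 1.11, SE 0.25, edgeR adjusted p = 0.0307). This call rested on most of the libraries, since leaving out any one but NICD 1 and NICD 5 gave an adjusted p between 0.0589 (Control 3) and 0.10 (NICD 2), with 0.0731, 0.0918, 0.0664 and 0.0873 lacking Control 1, Control 2, Control 4 and NICD 4. It was 0.0503 with an offset for transcript length and 0.0607 with Eif2s3y as a covariate.

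Kcnj13 (Kir7.1, a weak rectifier of epithelia; chr1:87386363-87394729) had the highest log2 fold change of the 71. It was at 0.231, 0.676, 0.475 and 0.649 CPM in controls and 3.85, 2.27, 3.35 and 1.26 CPM in β-tetO-NICD. The groups did not overlap, and all levels were low. Its mean rose from 0.508 ± 0.205 to 2.68 ± 1.16 CPM (SD, n = 4 each; log2 fold change 2.39, SE 0.45, edgeR adjusted p = 0.0145), and it passed in all 8 fits that left out 1 library. Exons of Kcnj13 overlap those of Gigyf2 on the opposite strand. Gigyf2 had a mean of 60.4 CPM in controls and 37.3 in β-tetO-NICD (log2 fold change -0.70, adjusted p = 0.115). How the counting used strand is not given in the sources used here, so reads of the overlap cannot be told apart.

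Subunits of the G protein-gated rectifiers, which open when receptors for transmitters such as somatostatin and adrenaline are engaged, did not pass where tested. Kcnj5 (GIRK4), the most abundant gene of the list by CPM, was at 24.9, 9.67, 20.1 and 87.8 CPM in controls and 1.43, 5.15, 25.6 and 12.8 CPM in β-tetO-NICD. The groups overlapped, and Control 4 was the highest of all libraries. The log2 fold change was -1.65 (SE 0.84, adjusted p = 0.199), with -0.67 (adjusted p = 0.597) lacking Control 4 and -2.45 (adjusted p = 0.149) lacking NICD 4. Kcnj6 (GIRK2) had -1.17 (SE 0.53, adjusted p = 0.163) and -1.60 (adjusted p = 0.0433) without NICD 1. Kcnj3 (GIRK1) lay on the other side of 0, at 0.50 (SE 0.24, adjusted p = 0.176), and Kcnj9 (GIRK3), with 2 to 13 counts per library, was not tested.

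Two-pore channels had 10 of 14 genes tested, 2 called higher and 1 lower, with a median log2 fold change of 0.26. The TASK genes Kcnk3 and Kcnk9 encode acid-sensitive leak channels whose subunits can pair with each other, and their counts lay on opposite sides of the controls. Kcnk9 (TASK-3; chr15:72501089-72546340) had 31, 60, 14 and 26 counts in the controls (1.43, 2.53, 0.554 and 1.06 CPM). In β-tetO-NICD it had 0, 1, 0 and 0 counts in NICD 1, 2, 4 and 5. All β-tetO-NICD libraries were under the floor of 3 counts, and against that floor in each library Kcnk9 was at least 10.6-fold lower (edgeR adjusted p = 0.00288). Kcnk9 passed the filter on low counts through the controls alone. With 0 or 1 count in β-tetO-NICD, it could be tested only because every control held 10 counts or more. Its p is given only as a description.

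Kcnk3 (TASK-1; chr5:30588170-30625271) was at 17.8, 15.4, 22.0 and 15.1 CPM in controls and 33.5, 32.3, 25.1 and 29.8 CPM in β-tetO-NICD. Every β-tetO-NICD library was above the highest control. The mean rose from 17.6 ± 3.21 to 30.2 ± 3.68 CPM (SD, n = 4 each; log2 fold change 0.78, SE 0.17, edgeR adjusted p = 0.0258). The adjusted p became 0.0697, 0.0837 and 0.0830 without Control 1, 2 or 4 and 0.0835 without NICD 2. Kcnk9 made up 7.42%, 14.2%, 2.46% and 6.55% of the summed Kcnk3 and Kcnk9 counts in the controls, and 0.135% in NICD 2 and 0 in the other β-tetO-NICD libraries. Gm9899, on the opposite strand and not analysed here, shares exon sequence with Kcnk3.

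Kcnk13 (THIK-1, known from microglia, the macrophages of the brain; chr12:99964499-100062682) was at 2.86, 1.73, 3.01 and 1.75 CPM in controls and 5.51, 14.6, 5.01 and 5.39 CPM in β-tetO-NICD. The groups did not overlap, and NICD 2 stood well above the rest. The mean rose from 2.34 ± 0.693 to 7.64 ± 4.67 CPM (SD, n = 4 each; log2 fold change 1.71, SE 0.40, edgeR adjusted p = 0.0358). Without NICD 2 the log2 fold change was 1.18 (adjusted p = 0.0737), and the adjusted p was 0.0743, 0.0995, 0.108 and 0.0552 without Control 1, Control 2, Control 4 and NICD 4. With Eif2s3y as a covariate the adjusted p was 0.0522. The summed macrophage markers were at 151, 179, 204 and 186 CPM in the controls and 220, 293, 257 and 324 CPM in NICD 1, 2, 4 and 5, so that the sums also did not overlap. C1qa, C1qb and C1qc carried this sum, with log2 fold changes of 0.95, 0.75 and 0.41, whereas Adgre1, Cd68, Csf1r and Lyz2 were at -0.38, 0.00, 0.09 and 0.07, and the median of the 7 was 0.09. Their part in the Kcnk13 difference was not tested.

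Kcnk16 (TALK-1), the two-pore channel best known from β cells, was the most abundant two-pore gene and did not pass. Its levels were 147, 126, 78.8 and 59.5 CPM in controls and 178, 113, 135 and 35.7 CPM in β-tetO-NICD, ranging widely in both groups (log2 fold change 0.17, SE 0.44, interval -0.82 to 1.15, adjusted p = 0.809). Kcnk1 (TWIK-1) did not overlap between the groups, with 22.2 to 26.7 CPM in controls and 29.0 to 37.9 in β-tetO-NICD, and had a log2 fold change of 0.47 (SE 0.14, adjusted p = 0.0663). Kcnk2 (TREK-1, a stretch-sensitive channel) had 1.15 (SE 0.39, adjusted p = 0.0923). Both passed without NICD 1, with adjusted p of 0.0180 and 0.0255.

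Pores of the Shaker, Shab, Shaw and Shal families open on depolarization, and 14 of their 17 genes were tested, with 1 called higher, 1 lower and a median log2 fold change of -0.16. Kcna2 (Kv1.2, of the Shaker family; chr3:107101146-107115005) was at 23.6, 25.8, 22.8 and 43.8 CPM in controls and 16.3, 10.2, 11.1 and 17.3 CPM in β-tetO-NICD. The groups did not overlap, and Control 4 was the farthest library. Its mean fell from 29.0 ± 9.94 to 13.7 ± 3.62 CPM (SD, n = 4 each; log2 fold change -1.08, SE 0.26, edgeR adjusted p = 0.0409). With an offset for transcript length the log2 fold change was -0.40 (adjusted p = 0.324), and without Control 1, Control 2, Control 4, NICD 2 or NICD 4 the adjusted p was 0.0670, 0.0764, 0.0912, 0.125 and 0.106. With Eif2s3y as a covariate it was 0.0542.

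Kcnc2 (Kv3.2, a fast-gating channel of the Shaw family; chr10:112271121-112467024) was at 4.75, 4.77, 4.51 and 6.45 CPM in controls and 11.8, 10.9, 11 and 7.91 CPM in β-tetO-NICD. The lowest β-tetO-NICD library, NICD 5, was above the highest control. The mean rose from 5.12 ± 0.896 to 10.4 ± 1.71 CPM (SD, n = 4 each; log2 fold change 1.02, SE 0.20, edgeR adjusted p = 0.0180). The adjusted p was 0.0543, 0.0555, 0.0629 and 0.0590 without Control 1, Control 2, NICD 2 and NICD 4.

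Among the other Shaker genes Kcna1 had a log2 fold change of -1.63 (SE 0.59, adjusted p = 0.107) and Kcna6 had -0.73 (SE 0.27, adjusted p = 0.114). Kcna1 passed without NICD 1 (-2.02, edgeR adjusted p = 0.0331) and Kcna6 passed without Control 3. With an offset for transcript length neither passed (edgeR adjusted p = 0.103 and 0.289). In the Shaw family Kcnc4 had a log2 fold change of 0.88 (SE 0.32, adjusted p = 0.113).

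The silent subunits, which form no working channel alone and join other voltage-gated pores, included Kcnf1, which had the smallest p of the 71. Only 3 of 10 were tested, 1 was called lower, and the median log2 fold change was -2.02. Kcnf1 (Kv5.1; chr12:17172100-17176888) was at 31.3, 8.99, 32.4 and 19.6 CPM in controls and 1.05, 0.393, 1.13 and 0.605 CPM in β-tetO-NICD. The lowest control lay far above the highest β-tetO-NICD library. Its mean fell from 23.1 ± 11 to 0.793 ± 0.352 CPM (SD, n = 4 each), a log2 fold change of -4.84 (SE 0.49, edgeR adjusted p = 0.000575), and between -5.10 and -4.61 when 1 library was left out. Kcng3 (Kv6.3) had -2.02 (SE 0.73, adjusted p = 0.107) and -2.89 (adjusted p = 0.0158) without NICD 1. Kcns3 (Kv9.3) lay higher in β-tetO-NICD without overlap, at 0.523 to 1.61 against 0.158 to 0.507 CPM (log2 fold change 1.42, SE 0.48, adjusted p = 0.0919). Before normalization, however, Kcns3 had 11 counts in Controls 1 and 2 and also in NICD 1. It passed in the fit without NICD 1.

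**Figure D3:**
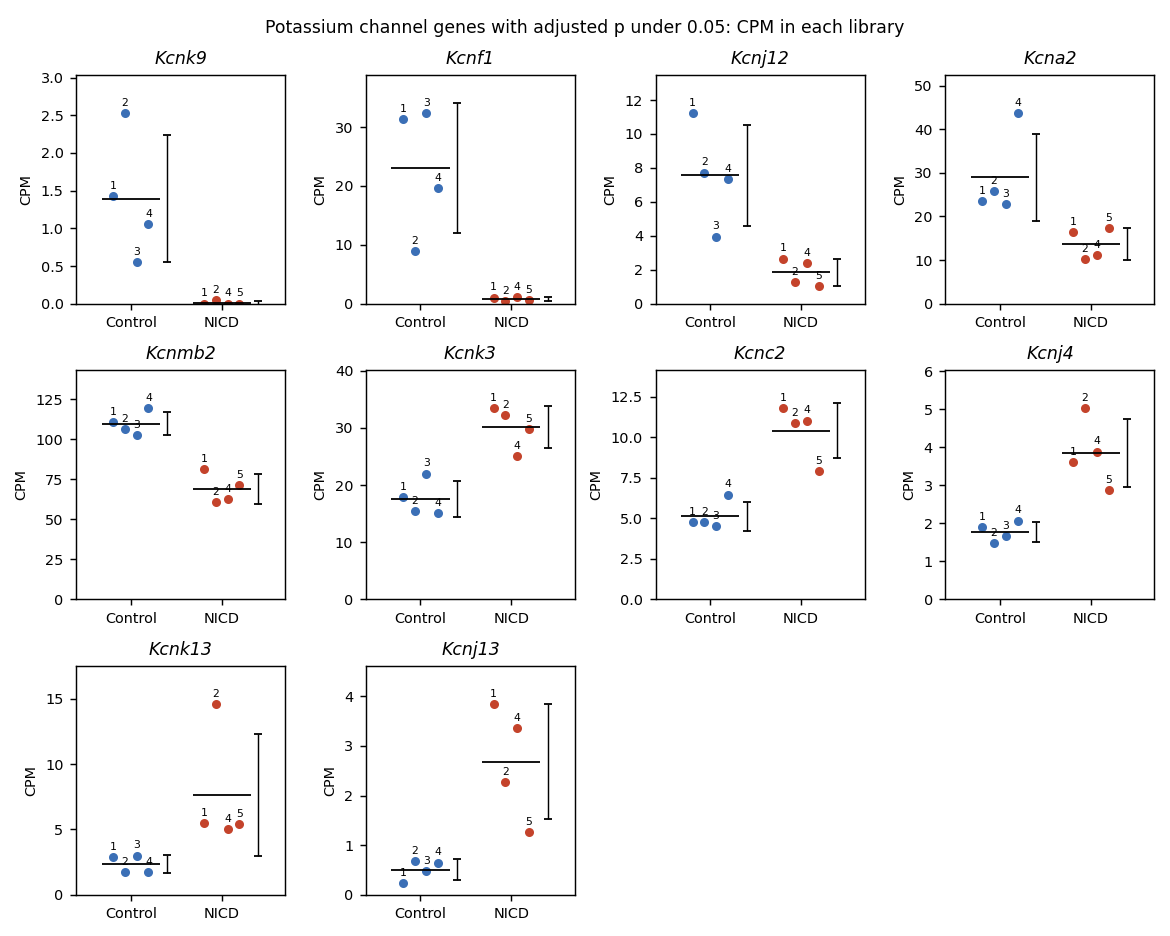
CPM of 10 called genes is plotted for each library (numbered points), each panel starting at 0, with a line at the group mean and a bar for 1 SD (n = 4). Kcnf1 and Kcnk9 are near 0 in all β-tetO-NICD libraries, at most 1.13 and 0.0437 CPM, and NICD 2 stands apart for Kcnk13 at 14.6 CPM.

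KCNQ channels carry slow currents that damp excitability. Kcnq1 (Kv7.1), which pairs with Kcne subunits in epithelia and heart, was at 8.16, 6.55, 4.19 and 5.48 CPM in the controls, and at 8.36, 6.59, 4.85 and 5.94 CPM in β-tetO-NICD. The groups overlapped almost wholly, with a log2 fold change of 0.08 (SE 0.26, interval -0.49 to 0.65, adjusted p = 0.848) whose sign depended on the processing. Kcnq3 and Kcnq5 had -0.93 and -0.97 (adjusted p = 0.232 and 0.206).

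No gene of the EAG, ERG and ELK families passed. Of 8 genes 6 were tested, with a median log2 fold change of 0.11. Kcnh2 (ERG1), which takes part in repolarization in heart and islet cells, was at 106, 74.6, 85.0 and 86.8 CPM in controls and 90.4, 105, 112 and 74.3 CPM in β-tetO-NICD (log2 fold change 0.12, SE 0.17, interval -0.27 to 0.50, adjusted p = 0.649). Kcnh6 (ERG2) was at 59.4, 72.7, 33.8 and 54.9 CPM in controls and 54.2, 27.0, 39.5 and 18.6 CPM in β-tetO-NICD. The Kcnh6 groups overlapped, with a log2 fold change of -0.66 (SE 0.33, adjusted p = 0.193), and -0.96 (adjusted p = 0.0372) without NICD 1.

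Calcium- and sodium-activated pores likewise had no call among 7 of 8 genes tested, and a median log2 fold change of -0.07. Kcnma1, the pore of the large-conductance BK channel, was at 37.9, 35.7, 13.6 and 45.3 CPM in controls and 30.7, 6.42, 11.6 and 3.73 CPM in β-tetO-NICD. The groups overlapped, with NICD 1 above Control 3 and the other β-tetO-NICD libraries below it. The log2 fold change was -1.34 (SE 0.60, adjusted p = 0.158), and -2.18 (adjusted p = 0.0101) without NICD 1, a fit in which 5011 of 15082 genes passed. With an offset for transcript length Kcnma1 had a log2 fold change of -0.83 (edgeR adjusted p = 0.157). The small-conductance gene Kcnn3 (SK3) had 0.41 (SE 0.38, interval -0.44 to 1.26, adjusted p = 0.467), and the intermediate-conductance gene Kcnn4 had 0.79 (SE 0.52, interval -0.38 to 1.96, adjusted p = 0.309).

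Accessory subunits had 12 of 16 genes tested, none called higher, 1 lower and a median log2 fold change of 0.25. Kcnmb2, the β2 subunit that makes BK channels inactivate (chr3:31902507-32200180), was at 111, 107, 103 and 119 CPM in controls and 81.6, 60.9, 62.4 and 71.3 CPM in β-tetO-NICD. The controls were close together and all above every β-tetO-NICD library. Its mean fell from 109.9 ± 7.21 to 69.1 ± 9.55 CPM (SD, n = 4 each; log2 fold change -0.67, SE 0.14, edgeR adjusted p = 0.0243). The adjusted p was 0.0660, 0.0602, 0.0762, 0.0855 and 0.0831 without Control 1, Control 2, Control 4, NICD 2 and NICD 4.

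The other tested BK β subunits lay on the opposite side without passing. Kcnmb1 was at 1.27 to 1.77 CPM in controls, against 2.52 to 3.49 in β-tetO-NICD (log2 fold change 0.86, SE 0.25, adjusted p = 0.0646), and passed with the length offset (1.0, adjusted p = 0.0312). Kcnmb4 was at 0.487 to 0.971 and 1.05 to 1.36 CPM (0.57, SE 0.31, adjusted p = 0.221). Neither overlapped between the groups, and nor did Kcne3, a single-span partner of KCNQ1, at 0.277 to 0.422 and 0.475 to 1.01 CPM (1.01, SE 0.38, adjusted p = 0.114). Before normalization, however, Kcne3 had 10 counts in Controls 2 and 3 and also in NICD 1. It passed in the fit without NICD 1. Kcnip1, a calcium-binding partner of Shal pores, had 0.36 (SE 0.15, adjusted p = 0.151).

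Levels of different genes can be compared only per length, here as mean control CPM per kilobase of the longest GENCODE transcript, which need not be the transcript used in islets. On that scale Abcc8 led at 168.5, followed by Kcnj11 at 50.0, Kcnk16 at 48.3, Kcnmb2 at 37.6, Kcnh2 at 20.9, Kcnh6 at 16.4, Kcnip1 at 11.6 and Kcnk1 at 10.8. Kcnmb2 was thus the only called gene of these 8. Kcnf1 was at 4.82 and Kcnk3 at 4.61 CPM per kilobase in controls, Kcnj12 at 3.07 and Kcna2 at 2.50. Kcnc2, Kcnj4, Kcnk13 and Kcnj13 were lower, at 1.01, 0.825, 0.759 and 0.40, and Kcnk9 was the lowest called gene at 0.113.

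Genes that work with potassium channels but carry other symbols were described in the same fit. Of 17 partner genes 15 were tested, 2 were called higher and 2 lower (26.7% of those tested, beside 6.76% of all genes), with a median log2 fold change of 0.11. Lrrc55 and Lrrc38 encode γ subunits that let BK channels open at less depolarized voltages. Lrrc55 was at 66.5, 101, 141 and 140 CPM in controls and 28.5, 23.4, 34.6 and 13 CPM in β-tetO-NICD, without overlap (log2 fold change -2.17, SE 0.33, edgeR adjusted p = 0.00548). Lrrc38 was at 2.44, 2.24, 0.673 and 0.446 CPM in controls and 6.18, 6.24, 12.2 and 7.91 CPM in β-tetO-NICD (2.49, SE 0.52, edgeR adjusted p = 0.0229). Lrrc55 and Lrrc38 thus changed in opposite directions. Lrrc26, another γ subunit, was at 0.646, 0.718, 0.554 and 0.812 CPM in controls and 0.190, 0.0873, 0.0332 and 0.504 CPM in β-tetO-NICD, without overlap, and did not pass (-1.80, SE 0.62, adjusted p = 0.0965), though it passed without NICD 5 (-2.75, adjusted p = 0.0236) and with the length offset (-2.35, adjusted p = 0.0356). The Lrrc38 call was lost without NICD 2 (adjusted p = 0.0550) or NICD 4 (0.0694).

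Dpp6, an auxiliary subunit of Shal channels, was at 26.2, 26.7, 34.4 and 44.2 CPM in controls and 58.8, 67.1, 66.6 and 48.7 CPM in β-tetO-NICD (log2 fold change 0.87, SE 0.20, edgeR adjusted p = 0.0307). The groups did not overlap. Dpp6 had an adjusted p of 0.0887, 0.0906, 0.0530, 0.0975 and 0.0899 without Control 1, Control 2, Control 3, NICD 2 and NICD 4, and 0.0630 with Eif2s3y as a covariate.

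Of 29 other genes of β cell electrical activity, all tested, none was called higher and 7 were lower (24.1%, beside 2.57% of all genes tested called lower), with a median log2 fold change of -0.39. They were the glucose-handling genes Slc2a2 (-1.80) and G6pc2 (-2.41), the sodium channel Scn9a (-1.61), the cation channels Trpm2 (-1.26) and Trpm5 (-2.10), and the calcium pumps Atp2a2 (-1.27) and Atp2a3 (-0.91), given as log2 fold changes. G6pc2, Trpm2 and Trpm5 passed in all 8 fits that left out 1 library. The calls of Slc2a2, Scn9a, Atp2a2 and Atp2a3 were each lost without Control 1, Control 2, Control 4, NICD 2 or NICD 4, at adjusted p between 0.0516 and 0.104, and those of Slc2a2 and Scn9a also without NICD 5 (0.0607 and 0.0773) and with Eif2s3y as a covariate (0.0572 and 0.0810).

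The members also varied with a trend in the libraries. In each library the deviation of all tested genes from their mean over the 8 libraries was correlated with transcript length (Spearman's rho across genes, which are not independent replicates). The rho was 0.42, 0.47, -0.18 and 0.50 in Controls 1 to 4 and 0.45, -0.52, -0.36 and -0.51 in NICD 1, 2, 4 and 5, so Control 3 and NICD 1 went against their groups. Among the 71 members the log2 fold change was lower for longer transcripts (rho -0.40), and with an offset for length in the fit the rho was -0.09. With that offset 10 members passed, of which 9 were among the 11, Kcna2 and Kcnj4 did not pass and Kcnmb1 was added. Without Control 3 and NICD 1, a choice made after seeing the data, 29 of the 71 members passed, beside 5930 of all 15082 genes tested. Of the 29, 10 were higher and 19 lower, and all 11 were among them. The part of this trend in the differences was not tested.

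**Figure D4:**
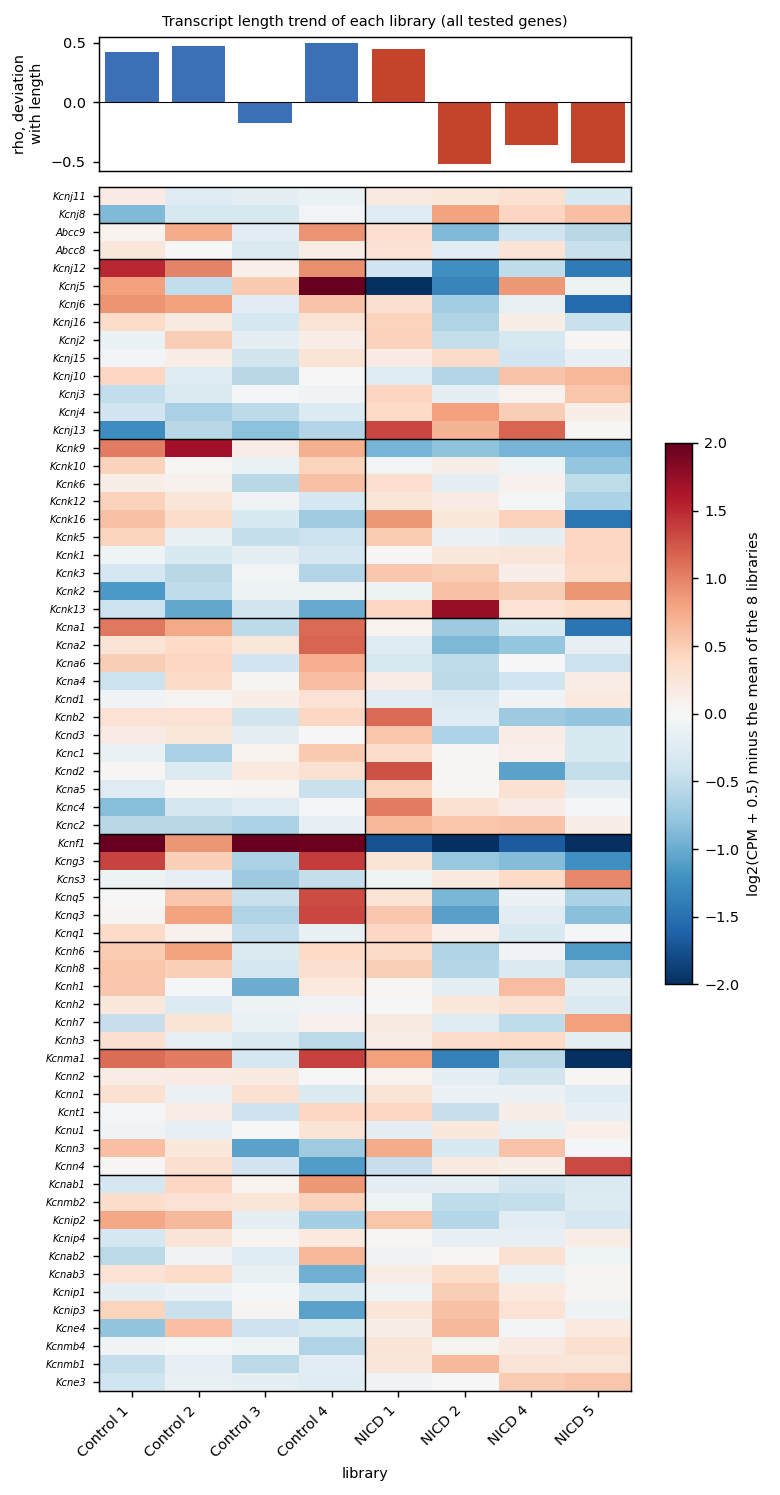
The upper panel gives rho of each library's deviation with transcript length over all tested genes (blue controls, red β-tetO-NICD), and the lower panel the log2 level of 67 of the 71 members (rows, by class) in each library relative to the mean of the 8, on a colour scale that saturates at 2 in either direction. Control 3 and NICD 1 have rho of -0.18 and 0.45, unlike the other libraries of their groups, and Kcnma1 and Kcnh6 are above their mean in NICD 1.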

How the data were processed

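The study sequenced poly(A) RNA of islets from 4 control and 4 β-tetO-NICD mice with a stranded kit. The authors used Kallisto pseudoalignment against GRCm38 transcripts and deposited whole-number counts per gene symbol, not normalized. The submitters' processing notes also name bcl2fastq and limma. Kallisto's version, the annotation, the use of strand and how counts were made whole are not given in the sources used here. The authors' deposited comparison table (limma fold changes and p values) was not used.

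The counts were fitted with edgeR 4.0.16 in R 4.3.3 (TMM normalization, at least 10 counts in at least 4 of 8 libraries, glmQLFit and glmQLFTest without covariates, Benjamini-Hochberg adjustment over 15082 genes, threshold 0.05). Totals of 21701223 to 26413146 counts put the floor of 3 counts at 0.0996 to 0.151 CPM. The most similar pair of libraries within a group differed by a chi-square of 31.5 per gene, so each was counted once. The fit was tested on simulated data for this comparison (14920 genes, 200 changed): edgeR recovered 34% of 2-fold and 82% of 4-fold changes, and 6.45% of its calls were false. For DESeq2 the latter was 25.6%. The share of false calls in the deposited libraries, which vary with transcript length as described above, was not tested. Lengths and coordinates came from GENCODE M21 and promoters from RefSeq (GRCm38.p6).

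Named genes were the 4 KATP genes, every called member, the member with the highest mean CPM of each class, 11 members long studied in β cells, and the called genes of both pathway lists. Some of these are not reported here. Other members named beside them were chosen after their values were seen. Members and lists were chosen with earlier results of these data known. Alternatives were DESeq2 1.42.0, limma-voom (limma 3.58.1), 2 other normalizations, other filters, dropping the 10 most counted genes, covariates (acinar score, Eif2s3y), a length offset, a replicate block and leaving out each library.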

Additional observations from a re-analysis of the deposited data

Results flagged for a closer look

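In 4 of the 46 groups of 4 libraries examined for the 23 named and tested members, 1 library stood apart, in that its gap to the nearest of the others, divided by the range of the group, was above 0.829. Chance gives about 1 in 20 groups. Among controls, Control 4 was highest for Kcna2 (gap 0.857 of the range, 43.8 CPM against 22.8 to 25.8) and for Kcnc2 (0.866, 6.45 CPM against 4.51 to 4.77). Among β-tetO-NICD libraries, NICD 2 was highest for Kcnk13 (0.948, 14.6 CPM against 5.01 to 5.51) and for Kcnk9, where the value of 1 reflects a single count against 0 in the others.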

How the results depend on the processing

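With 48 named genes under 20 alternatives, 951 values could be computed, of which 823 kept direction and side of the threshold, 71 lost and 42 gained the call, and 15 changed sign, none of a called gene. DESeq2 called 17 members (9 higher) and 2739 genes, against 11 (5 higher) and 1020. Eif2s3y as a covariate left 8 members, 3 higher and 5 lower, and the length offset gave 1574 genes. Without Control 3 and NICD 1 together, a choice made after seeing the data, 5930 of 15082 genes passed. Among them were 29 of the 71 members (10 higher, 19 lower) and 22 pathway genes. Leaving out 1 library gave 4 to 27 members (1 to 11 higher, 3 to 16 lower), 5 to 20 pathway genes, and 374 to 5011 genes, with 374 lacking NICD 2 and 5011 lacking NICD 1. The share of calls that were higher was 62.0%, 48.9% without NICD 1, 51.6% with the acinar covariate and 72.2% without NICD 4. Among these 48 genes signs changed only for Abcc8, Kcnk16 and Kcnq1. Abcc8 was at 0.0521 with upper-quartile normalization, 0.0012 with at least 10 counts in every library and 0.17 with the offset, and -0.13 to 0.10 with 1 library left out. Kcnk16 was at -0.23 with Eif2s3y and -0.23 without both libraries (-0.12 to 0.47 leaving out 1) and Kcnq1 at -0.0785 with the acinar covariate and -0.22 without both (-0.0730 to 0.26). Column numbers 1, 2 and 4 occur in both groups, but only 1 and 2 could be tied to mice in both. For those, deviations of same-numbered libraries correlated at 0.28 and -0.09. These values are too few to settle whether the numbers pair the mice, and no pairing was used in the main fit. With the replicate block 9 members passed, 8 of them among the 11, and Kcna2, Kcnj4 and Kcnk13 did not (adjusted p = 0.0511, 0.0560 and 0.0560). The cause of these shifts was not tested. Members at a few counts per library are limited by depth.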
